A study of Drosophila melanogaster with 4 samples.

Results

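JHDM1 clusters on heterochromatic and unplaced sequence were taken from a ChIP-seq profile of adult fly head nuclei. The assay reads out the DNA that comes down with an antibody against a chromatin protein after formaldehyde fixation. The members are all enriched regions, called clusters, on the 6 Het scaffolds (2LHet, 2RHet, 3LHet, 3RHet, XHet and YHet) and on U, chosen by sequence name alone. They numbered 362 of 7836 clusters in ChIP replicate 1, with 195 on the Het scaffolds and 167 on U. In ChIP replicate 2 they numbered 165 of 7074, with 90 on Het and 75 on U. The list deposited for the whole series held 347 of 8005, with 177 on Het and 170 on U.

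Drosophila melanogaster of the wild-type strain Oregon-R, labelled as mixed adults, gave the heads from which nuclei were prepared. The study comprised 2 ChIP libraries made with the JHDM1 antibody Q2634 and 2 input libraries, and each input was the background of the ChIP library of the same number. Flies were reared in population cages and heads were collected in bulk, so each library pools many animals and all cell types of the head. Nothing in the labels says that the replicates came from separate populations, and what spread they show could be technical.

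JHDM1 is the fly gene Kdm2, whose product carries the JmjC domain of histone demethylases, enzymes that remove methyl groups from histones. In the fly it has been linked to Polycomb-group repression as part of a complex with a ubiquitin ligase. Heterochromatin is the compact chromatin around the centromeres and along most of the Y chromosome, and it is rich in satellite DNA, transposons and other repeats. The Het scaffolds hold the heterochromatic sequence that was assigned to a chromosome. U joins unplaced pieces end to end, so neighbours on U need not be neighbours in the fly.

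With 2 ChIP libraries, no two-sided sign-flip test over replicates can give a p below 0.5. Clusters of 1 library are not replicates of a condition, so none of the comparisons below carries a p-value. Each is given per replicate, with the mean and SD over both. Shares carry 95% Wilson intervals, which cover counting error only. How deeply each library was sequenced is unknown, and so is the part of the scaffolds to which reads could be mapped uniquely.

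Scaffold clusters were few in both replicates, and replicate 2 had far fewer than replicate 1 on Het and on U alike. The ratio of their number in replicate 2 to that in replicate 1 was 0.462 on Het and 0.449 on U, against 0.968 on the large autosomal arms (2L, 2R, 3L and 3R together). The X and chromosome 4 lay between, at 0.756 and 0.790. Replicates 1 and 2 had 59 and 31 clusters on 2RHet, 57 and 26 on 3LHet, and 59 and 23 on 3RHet. The smallest scaffolds had single-digit numbers: 9 and 5 on 2LHet, 6 and 4 on XHet, and 5 and 1 on YHet. The covered length was similar on XHet, with 23.8 kb in replicate 1 and 21.6 kb in replicate 2. On 3RHet it was 120.6 kb and 51.2 kb. These differences are between 2 single libraries and were not tested.

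Clusters on U had higher scores than clusters on the Het scaffolds, in each of the 3 lists. The score is the authors' own value for each region, and its unit is not stated, so it was ranked within each list. A percentile of 50 is the middle of all clusters of that list. The median percentile on U was 86.0 in replicate 1 and 89.1 in replicate 2. On Het it was 64.0 and 45.2. The difference between U and Het was 33.0 ± 15.4 percentile points (mean ± SD, n = 2 replicates), larger than its SD. Taken between means in place of medians it was 19.4 points. The large autosomal arms stood at 45.6 and 49.7, so Het lay above them in replicate 1 and below them in replicate 2, while U lay far above in each. In the whole-series list the medians were 76.0 on U and 46.5 on Het. Scores on U were also widely spread. They ran from 0.362 to 6.42 in replicate 1 and from 0.241 to 6.38 in replicate 2.

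The upper end of the lists showed the same split. High-scoring is used here for clusters at or above the 95th percentile of their whole list, which by construction holds 5% of all clusters. The lowest high score among scaffold clusters was 2.18 in replicate 1 and 1.98 in replicate 2, and the next cluster below had 2.08 and 1.87. On U, 58 of 167 clusters (34.7%, interval 27.9 to 42.2%) were high-scoring in replicate 1 and 34 of 75 (45.3%, 34.6 to 56.6%) in replicate 2. On Het, 17 of 195 (8.72%, 5.51 to 13.5%) and 5 of 90 (5.56%, 2.40 to 12.4%) were. The share on U was 40.0% ± 7.50 and that on Het 7.14% ± 2.24 (SD, n = 2). Thus U exceeded Het by several times the spread between replicates. Het was near the 5% of the background in replicate 2, while in replicate 1 its interval lay just above 5%. Of the 50 highest scores of a list, 30 in replicate 1 and 24 in replicate 2 were on U, against 5 and 1 on Het.

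The Het scaffolds were not alike. In replicate 1 the median percentile ran from 40.6 on 2LHet and 55.3 on 2RHet through 63.0 on 3LHet and 69.4 on 3RHet to 80.1 on XHet and 89.2 on YHet. In replicate 2 the order of these medians was 2RHet (41.4), 3LHet (44.8), 2LHet (45.1), 3RHet (54.9), XHet (68.2) and YHet (78.7). XHet and YHet were thus the highest in each, from 6 and 5 clusters in replicate 1 and from 4 and 1 in replicate 2. YHet in replicate 1 stood above U, which had 86.0. In the whole-series list XHet (79.4, from 4 clusters) and YHet (78.7, from 10) were also above U (76.0). On 3LHet, 0 of 26 clusters of replicate 2 were high-scoring, and the highest score there was 1.52.

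**Figure D1:**
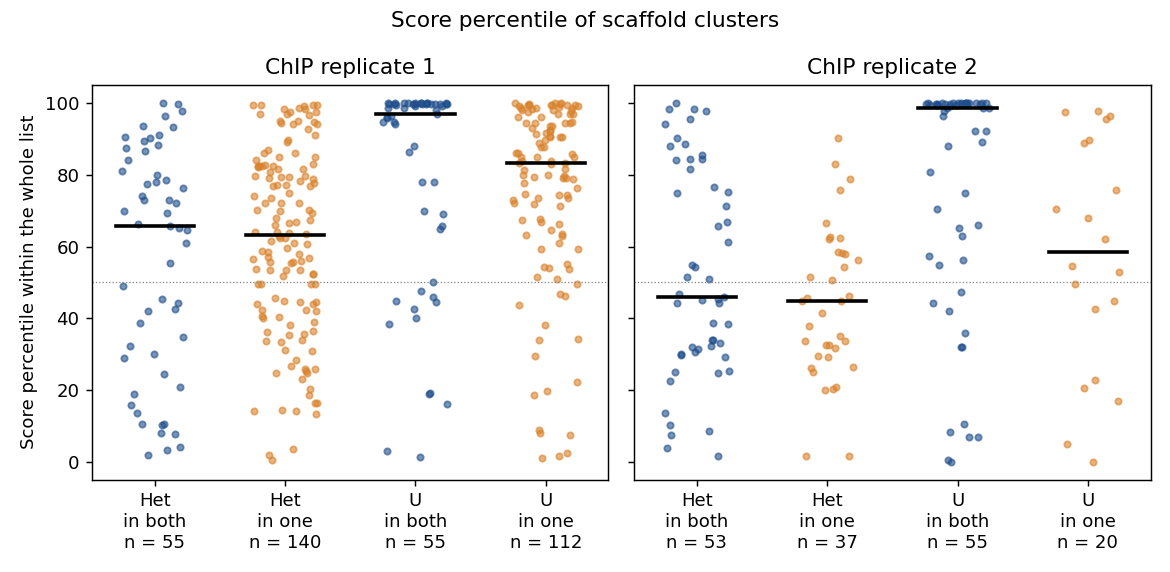
Score percentile (y axis) of every scaffold cluster within its own list, for ChIP replicates 1 and 2, split by Het or U and by whether the cluster touched one of the other replicate. Black bars are medians and the dotted line is the middle of the list. On U the clusters found in both have medians of 97.0 and 98.4, while on Het the medians of both kinds differ by at most 2.42 points.

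Clusters on U and on Het as a whole were shorter than those on the arms, and differed little from each other. The median was 1877 bp on U and 1798 bp on Het in replicate 1, and 2377 bp and 1989.5 bp in replicate 2. The difference between U and Het was 233 ± 218 bp (SD, n = 2), about the size of its SD. The large autosomal arms had medians of 2671 and 2628 bp. Exceptions were XHet, with 3339 and 4903.5 bp from 6 and 4 clusters, and 2LHet in replicate 2, with 3039 bp from 5. No Het cluster was longer than 10 kb in a replicate. U had 2 such clusters in each, and the longest measured 28.4 kb and 27.8 kb.

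Score and length went together less tightly on scaffolds than on the arms. Spearman's rho of score and length was 0.19 over 195 clusters on Het and 0.36 over 167 on U in replicate 1, and 0.59 over 5924 on the large autosomal arms. The values of replicate 2 were 0.38 over 90, 0.56 over 75 and 0.71 over 5732. In the whole-series list it was 0.10 over 177 on Het and 0.11 over 170 on U, against 0.64 over 6092 on the arms. These correlations run over clusters of the same library and carry no p-value. As the scatter of score against length shows, high scores on U occurred both in clusters near the minimum length and in clusters of 3 kb or more.

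**Figure D2:**
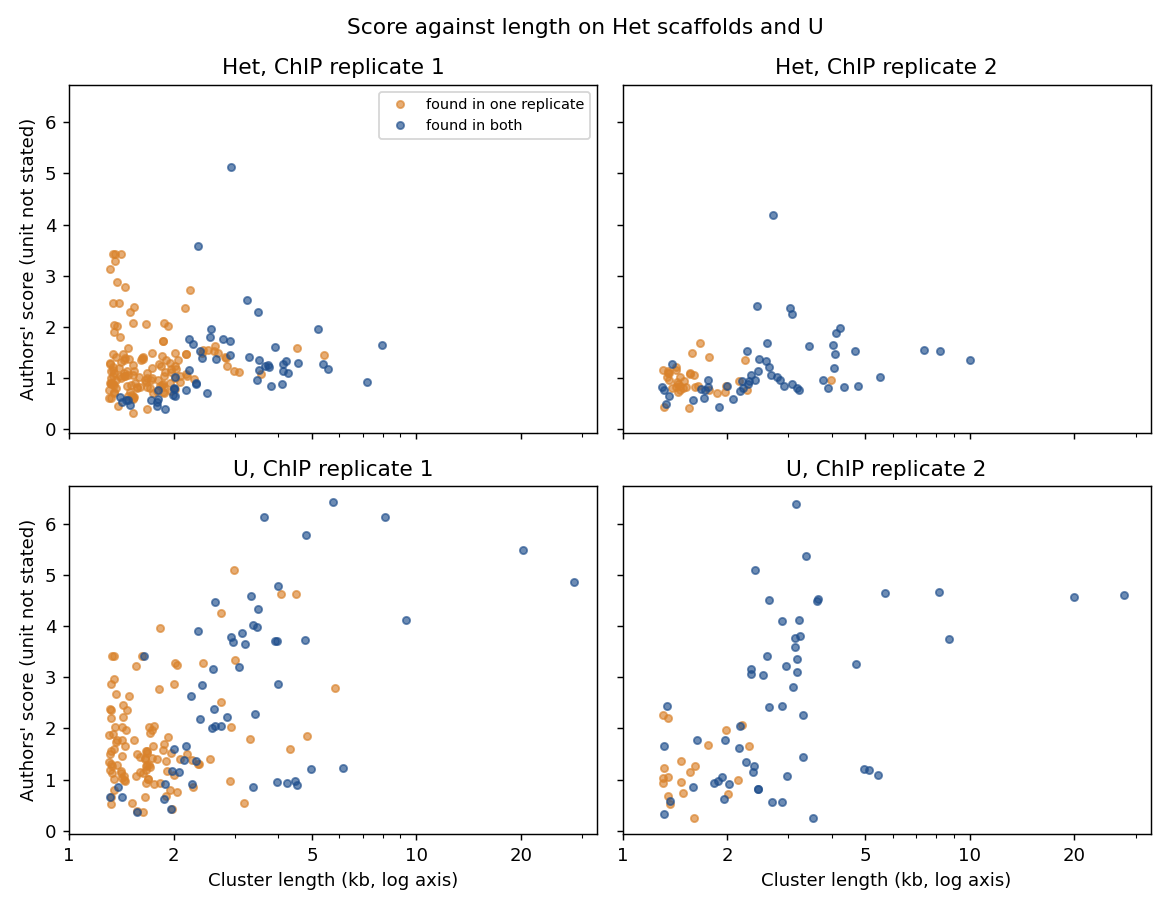
Authors' score (y axis, unit not stated) against cluster length (x axis, kb, log scale) on the Het scaffolds and on U in each ChIP replicate. Orange points were found in one replicate and blue points in both. In replicate 1, orange points stand in a column near the minimum length of 1.3 kb that reaches a score of 3.42. Above that score the points are longer and mostly blue. Orange points above it lie on U, reach a score of 5.09 and measure 1829 to 4501 bp.

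Fewer scaffold clusters than arm clusters were found in both replicates, counting a shared base pair as found. In replicate 1 the share was 28.2% (22.4 to 34.9%) on Het and 32.9% (26.3 to 40.4%) on U. The background over all clusters of that list was 77.4%. In replicate 2 it was 58.9% (48.6 to 68.5%) on Het and 73.3% (62.4 to 82.0%) on U, against a background of 86.1%. Taken over all scaffold clusters the share averaged 47.9% ± 24.8 (SD, n = 2), from lists of unequal size. The 2 values are the 2 directions of 1 overlap, so this SD is not a spread of independent values. U exceeded Het by 4.73 points in replicate 1 and 14.4 points in replicate 2, and the intervals of Het and U overlap in each. XHet and 2LHet stood out from this low sharing. On XHet 5 of 6 clusters and 4 of 4 were found in both, and on 2LHet 5 of 9 and 5 of 5. YHet had 0 of 5 and 0 of 1.

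On U, shared clusters had higher median scores than those of one replicate, while on Het the medians hardly differed. The median percentile on U was 97.0 for shared and 83.3 for single-replicate clusters in replicate 1, and 98.4 and 58.4 in replicate 2. On Het the medians were 65.7 and 63.3 in replicate 1, and 46.0 and 44.8 in replicate 2. The gap between shared and single-replicate clusters was thus 13.7 and 40.0 points on U and 2.42 and 1.27 points on Het. For comparison it was 26.6 and 28.9 points on the large autosomal arms. Over all scaffold clusters it was 14.6 ± 14.3 points (SD, n = 2), with 4.46 in replicate 1 and 24.7 in replicate 2. The upper quartile on Het was 82.6 for shared and 82.1 for single-replicate clusters in replicate 1, but 81.5 and 58.1 in replicate 2. High-scoring were 4 of 55 shared and 13 of 140 single-replicate Het clusters in replicate 1, and 5 of 53 and 0 of 37 in replicate 2.

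Sharing on U was concentrated at the top of the score range. When the U clusters of replicate 2 were cut into 3 classes of equal number by score, all 25 of the highest class were found in replicate 1. In the middle and lowest classes 15 of 25 each were found. In replicate 1 the classes held 30 of 56, 8 of 55 and 17 of 56 shared clusters from the highest to the lowest, so the middle class had the smallest share at 14.5% (7.56 to 26.2%). On Het the shares in replicate 1 were 27.7%, 21.5% and 35.4% in the same order, with overlapping intervals. In replicate 2 they were 70.0%, 50.0% and 56.7%, so the highest class was the most shared there too, again with overlapping intervals. The highest class on U was also the longest. Its median length was 2796 bp in replicate 1 and 3171 bp in replicate 2, against 1671.5 and 1880 bp in the lowest.

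Length separated shared from single-replicate clusters on both kinds of scaffold. Shared clusters had a median of 2559 bp on Het and 2971 bp on U in replicate 1, against 1594.5 and 1661 bp for the others. For replicate 2 they were 2601 and 2867 bp against 1502 and 1483 bp. Over all scaffold clusters the difference was 1171 ± 9.19 bp (SD, n = 2). Shared clusters of both lists lie largely at the same places, so this SD is not a spread of independent values. A longer cluster has a greater chance of touching another, and the part of this in the difference was not tested.

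Among the shorter clusters of replicate 1 the order of the scores turned round, and in replicate 2 it did so in the shortest class. Scaffold clusters of replicate 1 were cut into 3 classes of equal number by length. In the shortest class, from 1303 to 1564 bp, 8 clusters were shared and had a median percentile of 13.2, while the 113 single-replicate clusters had 72.2. In the middle class, up to 2165 bp, the medians were 25.1 for 20 shared and 69.0 for 100 single-replicate clusters. Only in the longest class were shared clusters higher, at 90.2 for 82 clusters against 82.7 for 39. In replicate 2 the shortest class gave 29.2 for 13 shared and 48.1 for 42 single-replicate clusters. Its middle class went the other way, with 54.9 for 41 shared and 47.2 for 14 single-replicate clusters, and its longest class had only 1 single-replicate cluster. The mean gap over the 3 classes was −31.8 points in replicate 1 and 10.3 points in replicate 2, so the replicates differed in sign. Over both it was −10.7 ± 29.8 (SD, n = 2), smaller than its SD. These classes pool Het and U. Cut apart in replicate 1, the gaps from the shortest to the longest class were −52.3, −34.6 and −4.44 points on Het. On U they were −65.1, −7.34 and 5.14 points, with only 4 shared clusters in the shortest class. In the shortest and middle classes of replicate 2 they were −26.0 and 1.62 points on Het, and −8.86 and 5.29 points on U.

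Where both replicates found a cluster on U, they placed it closely. Mutual best matches by overlap numbered 55 on U and 52 on Het. The median shift between the replicates was 208 bp at the start and 107 bp at the end on U, against 584 and 394 bp on Het and 413 and 423 bp on the large autosomal arms. Both ends lay within 200 bp in 17 of the 55 pairs on U (30.9%), 9 of 52 on Het (17.3%) and 598 of 4219 on the arms (14.2%). Spearman's rho of the scores was 0.83 over the pairs on U, 0.53 on Het and 0.54 on the arms, as descriptions over clusters of the same 2 libraries.

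The highest scaffold scores without a counterpart differed between the replicates. All 5 highest single-replicate scaffold clusters of replicate 1 lay on U and were among the 20 highest scores of that whole list. Single-replicate clusters on the large autosomal arms, which were not ranked here, reached a score of 4.13. The first of them, from 8466222 to 8469210, had a score of 5.09 and rank 7. Those from 7677435 to 7681514, from 6629728 to 6634228, from 9745201 to 9747931 and from 5525840 to 5527668 had ranks 10, 11, 15 and 20. In the whole-series list 4 of these 5 places were weak or empty. The first was matched there by a cluster with a score of 0.561 and percentile 30.7, the second by one at percentile 8.51, and the third by none. That from 9745201 was matched at percentile 39.5 and the last, by a 1001 bp cluster, at 96.7.

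In replicate 2 the 5 highest single-replicate scaffold clusters were lower in their list, with ranks from 158 to 697. They spanned 5053776 to 5055079, 8655668 to 8657017, 2760735 to 2762946 and 5831731 to 5833713 on U, and 252169 to 253837 on 3RHet. Their lengths ran from 1304 to 2212 bp. None of the 5 was matched in the whole-series list.

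Many scaffold clusters carried a score that occurred again, to 9 decimals, in another cluster of the same list. Such repeated scores were found in 101 of 195 Het clusters (51.8%, 44.8 to 58.7%) and 79 of 167 U clusters (47.3%, 39.9 to 54.9%) of replicate 1, against 21.2% of the large autosomal arms. Replicate 2 had 43.3% on Het and 28.0% on U, against 26.8% on the arms. The whole-series list had 41.8% and 38.2%, against 14.4%. So scaffolds exceeded the large autosomal arms in every list, by the least on U in replicate 2. There the interval of 19.1 to 39.0% takes in the value of these arms. The X and chromosome 4 had 33.3% and 29.4% in replicate 1, and 23.5% and 19.4% in the whole-series list. In replicate 2 they had 38.1% and 37.2%, above U.

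The repeated scores were spaced in a regular way. Raised as powers of 2 and divided by the commonest score of the list treated alike, 78.5% of the scaffold scores of replicate 1 were ratios of whole numbers with a denominator of at most 100, within a tolerance of 1e-08. Replicate 2 had 57.6% and the whole-series list 60.5%, and on the large autosomal arms it was 21.7%, 23.1% and 14.9%. A logarithm to base 2 of a ratio of 2 whole numbers has this property. On that reading a difference of 1 in score is a 2-fold difference, but the sources used here do not name the unit. The score 3.42 occurred 8 times in replicate 1 and stood at 11/2 of the commonest value. It was shared by 4 clusters on U and 3 on Het, of 1325 to 1646 bp, and had rank 41. The score 3.02 occurred 10 times in the whole-series list, at the same 11/2, on 3 clusters of U and 1 of YHet of 1001 to 1005 bp.

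Repeated scores belonged to short clusters that were seldom shared. In replicate 1, scaffold clusters with a repeated score had a median length of 1558.5 bp and 16.1% were found in replicate 2. Those with a score of their own had 2271.5 bp and 44.5%. The same shares were 33.3% and 83.8% in replicate 2. Among the high-scoring scaffold clusters of replicate 1, 2 of 26 with a repeated score were found in replicate 2, against 33 of 49 with a score of their own. On the arms only 7 of 264 high-scoring clusters of replicate 1 had a repeated score. In replicate 2, 1 of 39 high-scoring scaffold clusters did. Without clusters of repeated score the difference between U and Het was 40.1 ± 17.5 percentile points (SD, n = 2). That step does not drop all scores that were ratios of whole numbers as above, and these were commoner on U than on Het. They made up 86.8% on U and 71.3% on Het in replicate 1, and 70.7% and 46.7% in replicate 2. In the whole-series list they made up 66.5% and 54.8%. Read counts behind the scores were not used here, and the part of low counts in these values was not tested.

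In the whole-series list, 29 of the 65 high-scoring scaffold clusters had no counterpart in either replicate. On the large autosomal arms 26 of 300 high-scoring clusters had none. At any score, 115 of 347 scaffold clusters (33.1%) and 565 of 6092 on the arms (9.27%) had none. Over all its clusters 64.8% touched both replicates. On scaffolds 104 of 347 did (30.0%, 25.4 to 35.0%), with 28.2% on Het and 31.8% on U. Clusters on U that touched both had a median percentile of 96.9 and a median length of 3210 bp. Those that touched neither had 81.9 and 1067 bp, while those that touched replicate 1 only had 42.4 and 1680 bp. The 7 that touched replicate 2 only had 53.6 and 1897 bp. On Het the medians were 65.2 for both, 43.5 for replicate 1 only and 44.7 for neither. On the large autosomal arms clusters without a counterpart stood low, at 20.2, against 64.9 for those that touched both.

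Clusters without a counterpart were mostly shorter than 1301 bp, the shortest length deposited in either replicate list. On U 48 of 59 were (81.4%), and on Het 34 of 56 (60.7%). The large autosomal arms had 355 of 565 (62.8%), so Het was near the arms. Among all whole-series clusters, 63 of 170 on U, 57 of 177 on Het and 665 of 6092 on the arms were below that length. Of the 21 high-scoring clusters on U without a counterpart, 19 were below that length and 19 had a repeated score. Of the 8 on Het, 6 were below it and 8 had a repeated score. Of the 26 on the arms, 25 were below it and 22 had a repeated score. The whole-series list itself reaches down to 1001 bp. A replicate 2 cluster on an arm measured 1133 bp here, but only once its end was set back to the arm's length.

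**Figure D3:**
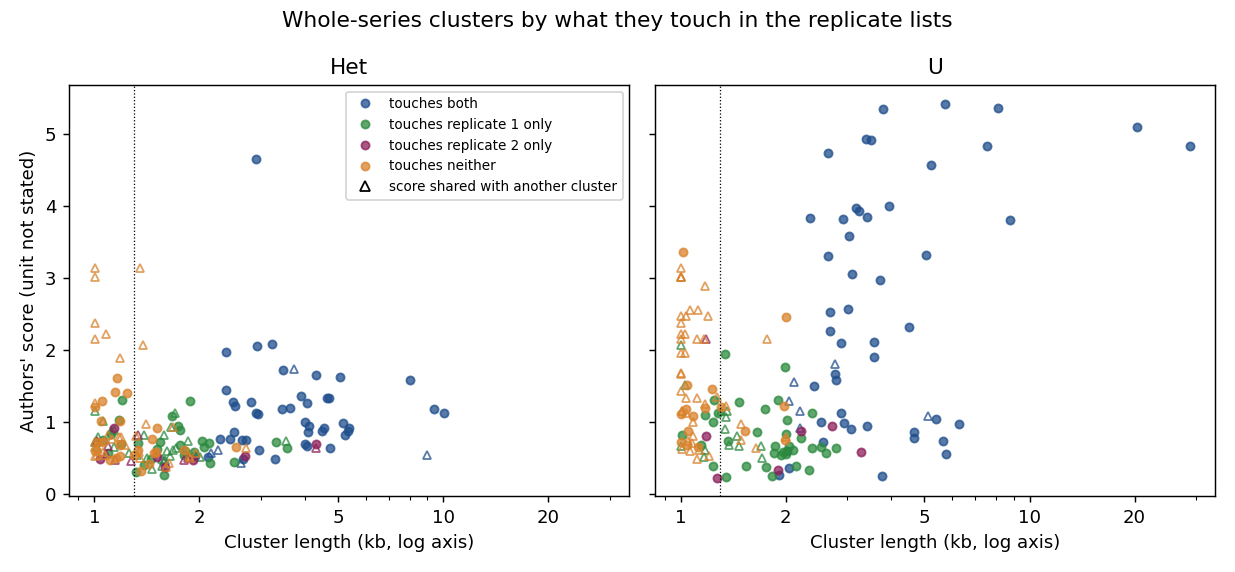
Authors' score (y axis, unit not stated) against length (x axis, kb, log scale) of whole-series clusters on Het and U, coloured by which replicate lists they touch. Open triangles are scores that recur in the list and the dotted line marks 1301 bp, the shortest length deposited in the replicate lists. On U, clusters that touch neither replicate stack up left of the line, and those that touch both spread to 28.8 kb.

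The sex chromosome scaffolds were opposites in this respect. XHet had 4 whole-series clusters and each touched both replicates, as did each of the 5 on 2LHet. The highest, from 74240 to 82276, had a score of 1.58 and percentile 91.4, with 87.5 and 85.4 in the replicates. A second, from 56832 to 66856, was the longest of all Het clusters at 10.0 kb. It was 1 cluster of 9982 bp in replicate 2 and was split into 2 in replicate 1. YHet had 10 whole-series clusters and none touched both. Its highest, from 321456 to 322460, was 1005 bp long at percentile 99.3, had a repeated score and was matched in neither replicate. The only YHet cluster of replicate 2, from 312425 to 314194, had no counterpart among the 5 of replicate 1.

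On the other Het scaffolds the highest clusters found in both replicates were of about 3 kb. On 3RHet this was the cluster from 2348000 to 2350906, with rank 10 in the whole-series list, 6 in replicate 1 and 11 in replicate 2. It was the 1 Het cluster among the 20 highest scores in each of the 3 lists. The highest on 2LHet, from 123236 to 126162, was at percentile 96.6, with 90.4 and 98.2 in the replicates. That on 2RHet, from 196736 to 199958, was at 96.8, with 97.6 and 90.1. On 3LHet, the cluster from 1394650 to 1398126 was at 93.5, with 96.4 and 76.5, so its standing differed most between the replicates.

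Long clusters differed in score between Het and U. The 3 longest on U ran from 1987150 to 2015978 (28.8 kb), from 3467636 to 3488014 (20.4 kb) and from 2682236 to 2691004 (8.77 kb). They ranked 7, 4 and 18 by score. Each was matched by 1 cluster per replicate, and the first of them measured 28377 bp in replicate 1 and 27767 bp in replicate 2. The 3 longest on Het were that of XHet, one on 3LHet from 593122 to 602488 and one on 3RHet from 1934372 to 1943318. Their percentiles were 75.8, 78.8 and 27.2. The last was broken into 3 clusters in replicate 1 and 2 in replicate 2.

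Scaffold clusters had a neighbour within 20 kb less often than arm clusters, and were also less dense. The share was 68.7% (61.9 to 74.8%) on Het and 58.7% (51.1 to 65.9%) on U in replicate 1, against a background of 92.6%. In replicate 2 it was 53.3% (43.1 to 63.3%) and 42.7% (32.1 to 53.9%), against 92.5%. In the whole-series list it was 71.2% and 60.6%, against 93.3%. Over all scaffold clusters of the replicates it was 56.3% ± 11.0 (SD, n = 2). Density was 21.0 clusters per Mb on Het and 16.6 on U in replicate 1, and 9.70 and 7.46 in replicate 2. The large autosomal arms had 61.3 and 59.3. Het thus exceeded U by 10.0 and 10.7 points in the share with a neighbour, with a higher density in each list. The median distance to the nearest cluster was 9.65 kb on Het and 13.3 kb on U in replicate 1, and 17.1 and 23.0 kb in replicate 2.

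**Figure D4:**
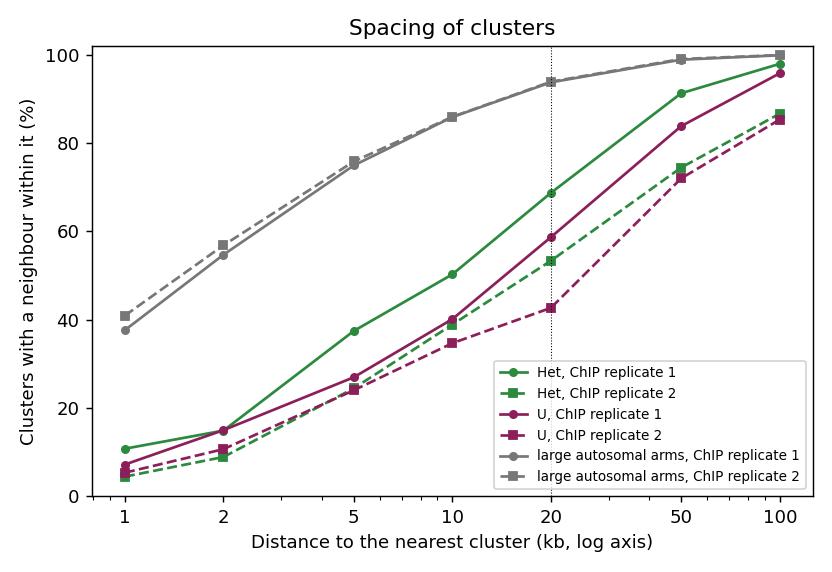
Share of clusters (y axis, percent) with another cluster within a given distance (x axis, kb, log scale) on Het, U and the large autosomal arms in each ChIP replicate. The dotted line marks 20 kb. Het and U lie below the arms at every distance drawn, and Het lies above U at 20 kb in both replicates.

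Clusters with and without a close neighbour differed little in median score, and on U not in the same direction in both replicates. Their median percentile on U was 88.3 in replicate 1 and 84.1 in replicate 2, and for clusters with none within 20 kb it was 84.8 and 89.1. On Het both kinds stood at 64.0 and 63.6 in replicate 1 and at 45.2 in replicate 2. The high-scoring share on Het was 5.22% with a neighbour and 16.4% without in replicate 1, but 6.25% and 4.76% in replicate 2. On U the same shares were 37.8% and 30.4% in replicate 1, and 46.9% and 44.2% in replicate 2. Clusters with a neighbour were more often found in both replicates. On Het the shares were 32.8% against 18.0% in replicate 1 and 70.8% against 45.2% in replicate 2. On U they were 36.7% against 27.5% and 81.2% against 67.4%.

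Single-replicate clusters mostly lay outside stretches that held a shared cluster. When the scaffold clusters of both replicates were joined into stretches with gaps of 20 kb or less, 229 stretches resulted. Both replicates contributed to 90, replicate 1 alone to 119 and replicate 2 alone to 20. Of the 252 single-replicate clusters of replicate 1, 61 (24.2%) lay in a stretch with a shared cluster. Of the 57 of replicate 2, 15 did (26.3%). Counting stretches with any cluster of the other replicate, shared or not, it was 88 of the 252 and 36 of the 57. Most of those of replicate 2 thus had a replicate 1 cluster in their stretch.

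High scores were spread over many stretches, and 1 stretch held 7 of them. In replicate 1 the 75 high-scoring scaffold clusters fell in 58 stretches of 211, and 8 of these held 2 or more. The 39 of replicate 2 fell in 29 of 116, and 4 held 2 or more. The 5 stretches with most of them held 19 of 75 (25.3%) and 15 of 39 (38.5%), or 31.9% ± 9.28 (SD, n = 2). They held 6.63% and 9.09% of all scaffold clusters. Since they were picked for their high scores, the excess is a description. High-scoring clusters with no neighbour within 20 kb numbered 31 of 75 (41.3%) and 21 of 39 (53.8%). Of all scaffold clusters 130 of 362 and 85 of 165 had none, so the high-scoring ones were near the background.

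The stretch with most high-scoring clusters lay on U from 2131138 to 2184560 and spanned 53.4 kb. It held 7 high-scoring clusters of 8 in the whole-series list, 7 of 8 in replicate 1 and 7 of 7 in replicate 2. In replicate 2 the scores of these clusters ran from 2.43 to 5.09 and their ranks from 3 to 109. In replicate 1 they ran from 2.88 to 5.78 apart from the cluster at its left end, which had 1.08 and no match in replicate 2. Clusters took up 48.0% of its length in replicate 1 and 37.2% in replicate 2. The replicates agreed closely on some of its members: the cluster from 2169997 to 2172635 in replicate 1 was placed from 2169992 to 2172632 in replicate 2, with scores of 4.48 and 4.51. The one from 2160938 to 2168478 in the whole-series list was split into 2 in each replicate.

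A stretch of 37.1 kb from 2653928 to 2691004 held 3 large clusters of 5.74 to 9.36 kb in replicate 1. Their scores were 6.42, 6.13 and 4.12, with ranks 1, 3 and 17. The same 3 in replicate 2 had scores of 4.65, 4.66 and 3.74, with ranks 5, 4 and 19. A weaker cluster at its left end had a score of 1.39 in replicate 1 and no match in replicate 2. A stretch of 46.0 kb from 3442016 to 3488014 rested on 1 long cluster, with scores of 5.49 and 4.58 in the replicates, beside weaker clusters of 0.546 and 2.05 in replicate 1 and 0.942 in replicate 2.

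**Figure D5:**
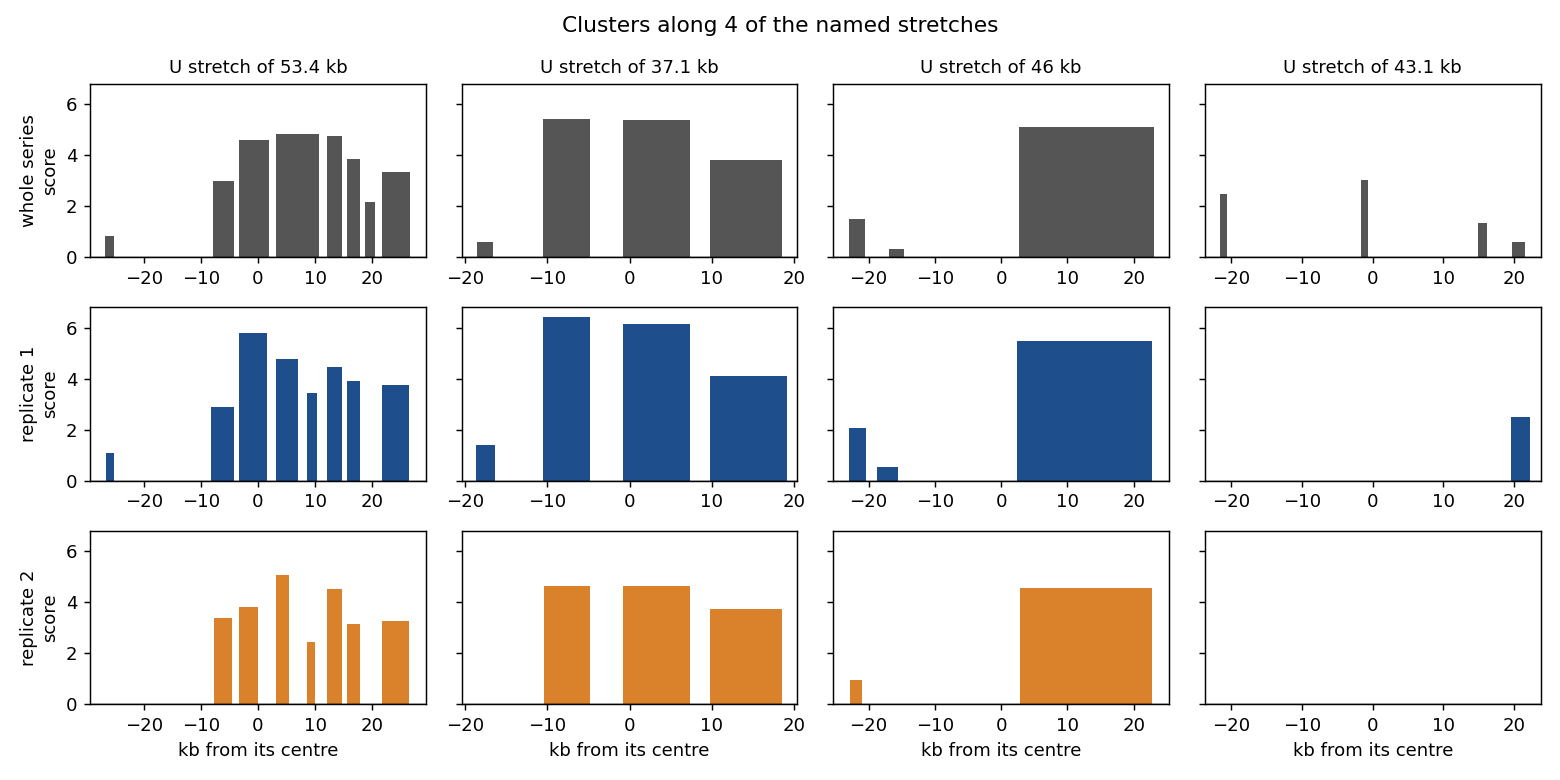
Clusters along 4 of the 10 named stretches on U, drawn as bars as wide as the cluster and as high as the authors' score (y axis, unit not stated), against distance from the centre of the stretch (x axis, kb). Rows are the whole-series list and ChIP replicates 1 and 2. The first 3 stretches have the same main bars in each row, and the last is nearly empty in the replicates.

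The other named stretches, chosen by their number of high-scoring whole-series clusters and then by their highest score, were also on U. Those from 7774166 to 7777966 and from 9500998 to 9504386 were single clusters. The first had ranks 2 and 8 in replicates 1 and 2 and the second 12 and 2. The stretch from 7843018 to 7853408 contained rank 1 of replicate 2, with a score of 6.38 there and of 4.34 in replicate 1. The main cluster of each of these 3 was found in both replicates.

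The pair from 9927170 to 9942064 was also found in each, with scores of 3.16 and 2.22 in replicate 1 and of 3.41 and 3.11 in replicate 2. A further 2 stretches, from 9797390 to 9806868 and from 6671270 to 6682920, had 1 member in each replicate and a second, of 1195 and 1039 bp, in the whole-series list alone. Both second members had the same repeated score of 2.47. The stretch from 7904142 to 7947270 had 4 whole-series clusters of 1001 to 1849 bp, of which replicate 1 had 1 and replicate 2 had 0.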

How the data were processed

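Per the submitters' processing notes, Bowtie 0.12.7, a short-read aligner, was used. The authors deposited lists of regions of significant enrichment, 1 per ChIP replicate and 1 for the series, with a score per region whose unit, caller and thresholds are not given in the sources used here. Coordinates refer to FlyBase release 5, per the file headers. No genome of that release was used here, so no sequence is shown and no gene is assigned.

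Scores were turned into percentiles of their whole list, and clusters were called shared at 1 bp or more. Stretches are chains of clusters with gaps of 20 kb or less. The input libraries were not analysed on their own. Overlap and chaining were tested on simulated data. Named stretches are the 10 whole-series scaffold stretches with most high-scoring clusters. Named clusters are the highest per scaffold (touching both replicates where any did) and the 3 longest on Het and on U. The 5 highest single-replicate scaffold clusters of each replicate were named too. The repeated scores, and the YHet and stretch members named beyond this rule, were chosen after their values were seen. The members and measures were chosen with earlier results of these data known. Alternatives were other overlaps, distances, thresholds, summaries and lists. The software was scipy 1.17.1, pandas 2.3.3 and numpy 2.4.6 with matplotlib 3.10.9, under Python 3.11.15.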

Additional observations from a re-analysis of the deposited data

How the results depend on the processing

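Of 32 alternatives, 25 stayed within 1 SD of the replicates, 6 moved beyond it and 1 turned the direction. The SD rests on 2 values and is wide for most measures. A further 12 left out 1 of the 2 replicates, which by construction keeps the value within 1 SD and shows nothing about stability. The gap in score percentile between shared and single-replicate clusters became −10.7 as the mean inside length classes, from −31.8 in replicate 1 and 10.3 in replicate 2, and the cause was not tested. With 1 replicate it was 4.46 to 24.7. The difference in percentile between U and Het was 19.4 with means, 16.8 among clusters of one replicate only, and 22.1 to 43.9 with 1 replicate. In length it was 79 to 387.5 bp with 1 replicate. The difference in length between shared and single-replicate clusters was 1055 bp when clusters within 1 kb counted as shared, and 1164.5 to 1177.5 bp with 1 replicate. The share with a neighbour was 28.4% at 5 kb, 41.3% at 10 kb and 80.6% at 50 kb, and 48.5 to 64.1% with 1 replicate. The share of high scores in 5 stretches was 42.0% at the 99th percentile and 25.3 to 38.5% with 1 replicate. The alternatives by repeated score, by 10 kb, by replicate number and by scaffold class were chosen after seeing the data. Leaving out a replicate gives no share found in both. No paired analysis was possible because only the ChIP group had cluster lists, so no pair of groups shared a replicate number. The unknown read depth and mappable length limit every density and count on the scaffolds.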

Other observations

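Along U, clusters were uneven. The first 1 Mb had 15 clusters in replicate 1 and 1 in replicate 2, with 0 found in both. The bin from 2 to 3 Mb had 20 and 14 clusters, of which 11 and 12 were high-scoring, and 94.0 and 75.6 kb were covered. The bin from 9 to 10 Mb had 21 and 13 clusters, with 13 and 9 high-scoring. Of the 100 bins of 100 kb on U, 22 in replicate 1 and 55 in replicate 2 held no cluster, and the 10 most covered held 39.4% and 56.6% of the covered length. On Het, 16 and 39 of 90 bins were empty, and the 9 most covered held 30.0% and 41.8%. Pieces of U are joined in no chromosomal order, so these bins are places in the file and not regions of a chromosome.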
